A study of Caenorhabditis elegans with 12 samples.

Results

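Post-reproductive ageing was followed by comparing the microRNAs of *Caenorhabditis elegans* at day 21 of adulthood with those at day 7. The comparison rested on 6 of the 12 libraries of the series, 3 biological replicates at each of these ages, and they were taken by the age in their labels, with no measured value used in the choice. Both groups were whole worms of the strain N2, the standard laboratory wild type, and no transgene, mutation or drug treatment is named for either. Worms were handpicked into TRIzol, after dead animals and those with internal hatching or a burst vulva had been taken off the plates, and total RNA from the pooled worms went into the small RNA libraries. Day 7 lies near the close of egg laying and day 21 near the mean lifespan of the strain, so animals that had died earlier are not represented at day 21. The comparison asks which microRNAs change after reproduction, when the change from a young adult to an older one is already past. The other 6 libraries, from days 1 and 14, entered the filter on low counts, the scaling and the estimate of the spread between replicates. They also chose the more abundant arm of each hairpin, and are given as levels where they help.

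MicroRNAs are short RNAs cut from a hairpin, and they guide Argonaute proteins to messenger RNAs that pair with their seed, bases 2 to 8 from the 5′ end. Each hairpin has a 5p arm and a 3p arm. The arm kept by Argonaute accumulates, and its partner is usually degraded. Members of a family share a seed and can act on the same targets, so families are described together below. In worms, microRNAs time larval development, are needed in the embryo, and several of them lengthen or shorten adult life when deleted. The level of a microRNA is given as TMM-normalized CPM, that is, counts scaled to a common library total with a correction for differences in composition. Whole worms were sequenced, so fewer cells of a type and less RNA per cell cannot be told apart.

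The study designed oligonucleotides for 3 mature microRNAs of this comparison, and they are shown because 1 of these microRNAs passed the test and the other 2, both very abundant, did not. Bases that correspond to the seed are in capitals and the letters are those of DNA.
miR-83-3p, sense strand of the mimic: tAGCACCAtataaattcagtaa
miR-56-3p, forward primer: gcgtACCCGTAatgtttcc
miR-82-3p, forward primer: ctgtGAGATCAtcgtgaaa
The primers carry added bases before the microRNA part. *mir-83* lies on chromosome IV, and *mir-56* and *mir-82* on chromosome X. The seed of miR-83-3p is that of mammalian miR-29 and is shared by miR-49-3p. The seed of miR-56-3p is that of the miR-51 family, and the seed of miR-82-3p is that of the miR-58 family, the worm relatives of *Drosophila* bantam.

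The day 21 libraries held 6042140 to 11348110 counts and the day 7 libraries 7320594 to 7897687, in which 368 mature microRNAs were named and 245 had enough counts to be tested. Replicates differed by far more than counting noise (chi-square of 204.1 to 2278 per degree of freedom), so each error is a SD over libraries or a standard error of the fit. Day 21 replicate 1 stood apart from the other 2 day 21 libraries. On the first principal component of the 6 libraries, with 83.2% of the variance, it lay at 4.3, against 13.0 and 14.0 for day 21 replicates 2 and 3 and -10.7 to -10.2 for the day 7 libraries. It was the day 21 library closest to day 7 for 99 of the 128 microRNAs called below. It was also the deepest of the 6, with 11348110 counts, and the part of depth in its position was not tested. Counts of calls, some single calls and the spread between replicates are also given without it. Shares of counts and arm ratios are given only with it included.

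At day 21, 128 of the 245 microRNAs tested (52.2%) differed from day 7 (quasi-likelihood test of edgeR, Benjamini-Hochberg adjusted p under 0.05 over the 245). Of these, 67 (27.3% of those tested) were higher and 61 (24.9%) were lower at day 21. The 3 day 21 libraries did not overlap with the 3 day 7 libraries for 158 microRNAs (64.5%), and all 128 called were among these. The change exceeded 2-fold for 55 of the higher and 47 of the lower microRNAs, and 4-fold for 21 and 14. The median log2 fold change of all 245 was -0.04, a centre that the TMM scaling itself sets. With library totals in its place the median was -0.12, with 58 called higher and 60 lower. Calls of higher were more frequent among abundant microRNAs than among scarce ones. Among 45 microRNAs with a mean of at least 1000 CPM, 20 were higher and 6 lower (median log2 fold change 0.50), while among 81 under 10 CPM, 15 were higher and 22 lower (median -0.27). The 20 hold several 3p arms of the miR-35 family, and both miR-44-3p and miR-45-3p, whose counts are the same. Without day 21 replicate 1, 136 were called (70 higher and 66 lower), and 124 of the 128 kept their call and direction. The count was 95 without day 21 replicate 3 (56 higher and 39 lower).

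**Figure D1:**
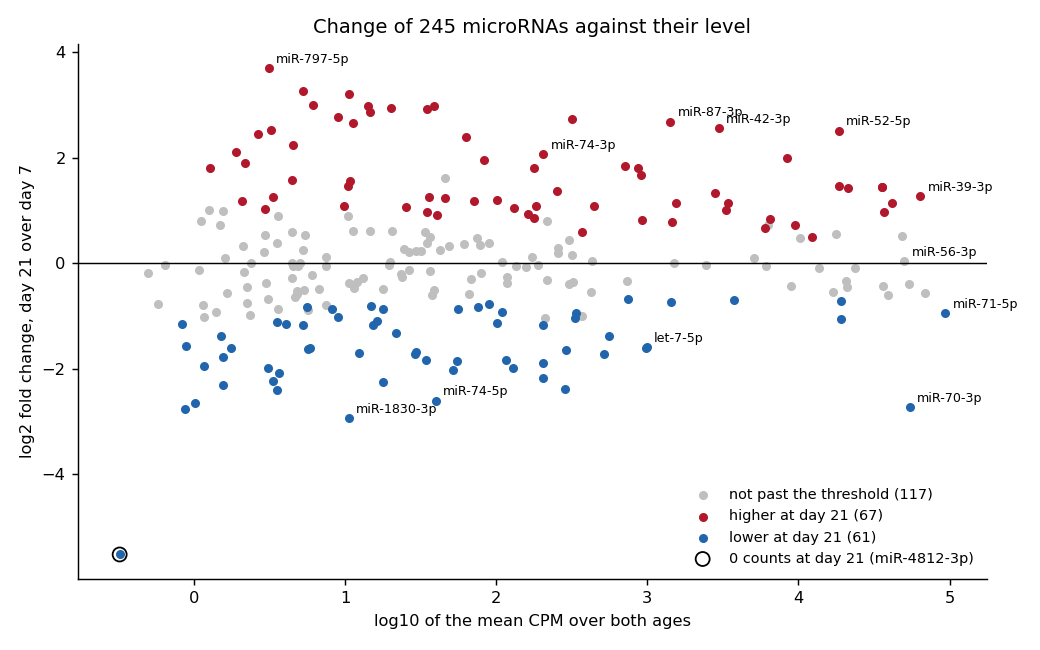
Log2 fold change of day 21 over day 7 (vertical axis) against log10 of the mean CPM over both ages (horizontal axis) for the 245 microRNAs tested, coloured by the call of edgeR. The 67 higher and 61 lower microRNAs spread over the whole range of levels; the ringed point, miR-4812-3p, had 0 counts at day 21, so its fitted value is no bound.

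The make-up of the microRNA pool differed between the ages. The 5 most abundant microRNAs of a library held 33.4% ± 1.39 of its counts at day 21, against 42.7% ± 0.339 at day 7 (SD, n = 3 each). At day 21 the pool was thus spread over more species, and the ranges did not overlap (two-sided exact permutation p = 0.1, below which 3 against 3 libraries cannot go). The reads of miR-44-3p and miR-45-3p, the same in both, were counted under both names here. Each name held 5.04% at day 21 and 1.97% at day 7 on average, and the shares were not recomputed without 1 of them. By mean share the most abundant microRNA was miR-39-3p at day 21, with 8.77% ± 1.36 of the counts (SD, n = 3), against 3.86% ± 0.689 at day 7. At day 7 it was miR-71-5p, whose share was 6.26% ± 2.34 at day 21, against 12.8% ± 0.608 at day 7. In day 21 replicate 1 miR-71-5p still led, with 8.32% against 7.61% for miR-39-3p. miR-70-3p lost the most of those named, with 1.43% ± 1.03 at day 21, against 9.75% ± 1.20 at day 7.

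By family, the miR-35 family held 19.9%, 21.8% and 20.9% of the counts at day 21, against 9.38%, 8.18% and 10.3% at day 7. The miR-44 family held 10.4%, 12.7% and 8.90% at day 21, against 4.60%, 4.33% and 4.87% at day 7, with the reads of miR-44-3p and miR-45-3p, which are the same in the table, counted under both names. Both families were above their whole day 7 range in every day 21 library. The miR-58 family moved the other way, with 16.8%, 14.3% and 13.4% at day 21, against 21.7%, 22.4% and 21.1% at day 7. The miR-72 family averaged 6.83% ± 0.833 at day 21 and 4.08% ± 0.197 at day 7 (SD, n = 3 each), and the family of miR-63 and miR-64 averaged 4.37% ± 0.923 at day 21 and 6.32% ± 0.176 at day 7. For each of these 5 families the exact permutation p was 0.1 (two-sided), again the smallest possible. The miR-51 family, at 17.4% ± 3.87 at day 21 and 14.9% ± 1.31 at day 7, overlapped between the ages (exact permutation p = 0.5), and so did the let-7 family at 2.65% ± 0.458 and 3.15% ± 0.525 (exact permutation p = 0.4). A share of counts does not use the TMM factors, but it is taken of the library total. A larger share of 1 family therefore leaves a smaller share for the others.

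**Figure D2:**
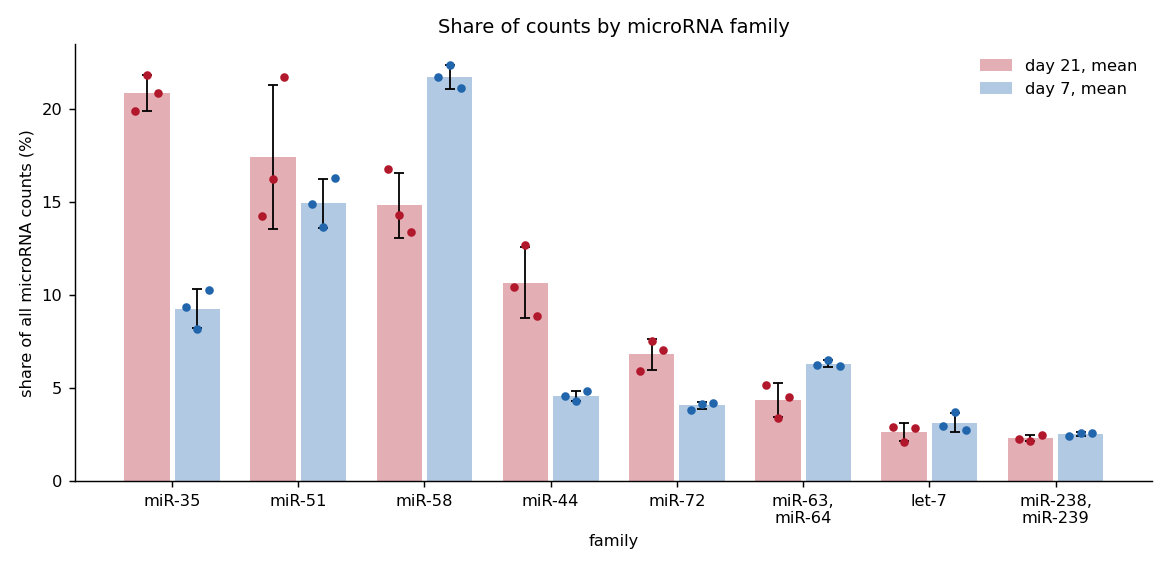
Share of all microRNA counts (vertical axis, percent) taken by 8 families, with day 21 to the left of day 7 in each pair; bars are means, whiskers SD and points the 3 libraries. The miR-35 and miR-44 families stand higher at day 21 in every library, the miR-58 family lower, and the miR-51 and let-7 families overlap.

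Among the microRNAs that fell, miR-70-3p had the largest loss of counts. It was at 25167, 10044 and 7685 CPM at day 21, against 114894, 81765 and 87322 CPM at day 7, and its log2 fold change was -2.73 (SE 0.48, adjusted p = 5.8e-04). All 3 day 21 libraries were far below day 7, and day 21 replicate 1 was the highest of them. Over the 4 ages its mean was 107818 CPM (day 1), 94660 (day 7), 21581 (day 14) and 14299 (day 21). Its partner arm miR-70-5p, at 1.25 ± 1.37 CPM at day 21 and 6.07 ± 1.66 CPM at day 7, was lower as well (-2.08, adjusted p = 0.0151), a call lost without day 7 replicate 2 (-1.77, 0.0825), day 21 replicate 2 (-1.57, 0.0652) or day 21 replicate 3 (-1.82, 0.0754). *mir-70* lies on chromosome V (WBcel235, 6665536 to 6665635, minus strand) inside an intron of a coding gene transcribed the same way, and that host gene was not measured here.

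Among the timing microRNAs of the larva, let-7-5p, which drives the passage from larva to adult, was at 722.7, 352.5 and 384.8 CPM at day 21, against 1672, 1542 and 1217 CPM at day 7 (-1.60, SE 0.29, adjusted p = 5.8e-04). Its sister miR-241-5p, which acts a stage earlier in larval life, was at 242 ± 105 CPM at day 21 and 795 ± 120 CPM at day 7 (-1.72, adjusted p = 0.00173). miR-48-5p, encoded beside *mir-241* and with the same seed, was at 18160 ± 2361 CPM at day 21 and 22808 ± 3025 CPM at day 7, and its 95% interval of -0.81 to 0.15 lay within 2-fold. So 2 microRNAs of one seed and one locus had different outcomes in the test, though their difference was not itself tested. miR-84-5p, another sister, was higher (0.67, adjusted p = 0.0432), a call lost under 8 alternatives, among them the omission of any single library other than day 21 replicate 1 (0.50 to 0.82). Of the 12 arms of the let-7 family tested, 1 was higher and 3 were lower (median log2 fold change -0.28), close to the 24.9% lower among all 245.

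lin-4-5p, the earlier of the larval timers and a microRNA whose loss shortens life, was at 1485, 932.2 and 828 CPM at day 21, against 1722, 2002 and 1667 CPM at day 7 (-0.73, SE 0.24, adjusted p = 0.0198). Its call was lost without day 7 replicate 1 (-0.77, adjusted p = 0.0526), day 7 replicate 2 (-0.60, 0.0928), day 21 replicate 2 (-0.54, 0.109) or day 21 replicate 3 (-0.57, 0.103). miR-237-5p, which has the lin-4 seed, was at 190, 109.7 and 121.9 CPM at day 21, against 519.5, 385.8 and 412.3 CPM at day 7 (-1.64, adjusted p = 6.2e-04). This fall passed under every alternative tried.

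Other falls concerned microRNAs of middle or low level. miR-63-3p was at 677.9, 378.6 and 433.4 CPM at day 21, against 1605, 1546 and 1335 CPM at day 7 (-1.59, adjusted p = 2.3e-04). Of the 8 arms in the family of miR-63 and miR-64, 4 were lower and 1 higher (median -0.87), beside 24.9% lower and 27.3% higher among all 245. The arm that was higher, miR-229-5p (0.79, adjusted p = 0.0421), was no longer called without any single library other than day 21 replicate 2 (0.52 to 0.89). miR-78 was at 119.7, 61.2 and 40.6 CPM at day 21, against 329.9, 336.5 and 336 CPM at day 7 (-2.17, adjusted p = 3.0e-04). miR-250-5p, which comes from a hairpin of the miR-2 family, was at 20.2 ± 8.82 CPM at day 21 and 82.6 ± 13.5 CPM at day 7 (-2.03, adjusted p = 5.8e-04). The largest fall with counts at both ages was that of miR-1830-3p, at 3.13, 2.51 and 1.43 CPM at day 21, against 18.6, 13.1 and 24.4 CPM at day 7 (-2.94, adjusted p = 7.7e-05). miR-1020-3p, a mirtron (a microRNA made from a spliced intron without the Drosha step), also fell, with 1.11 ± 0.439 CPM at day 21 and 5.93 ± 0.739 CPM at day 7 (-2.40, adjusted p = 7.6e-04). Of the others listed as mirtrons and tested, miR-62 was higher (1.06, adjusted p = 0.00188), and miR-1018, described with its neighbours below, was higher too. miR-4812-3p had 0 counts over the 3 libraries of day 21 and 15 over those of day 7, and no fold is given for it beyond its call as lower (adjusted p = 0.00318).

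**Figure D3:**
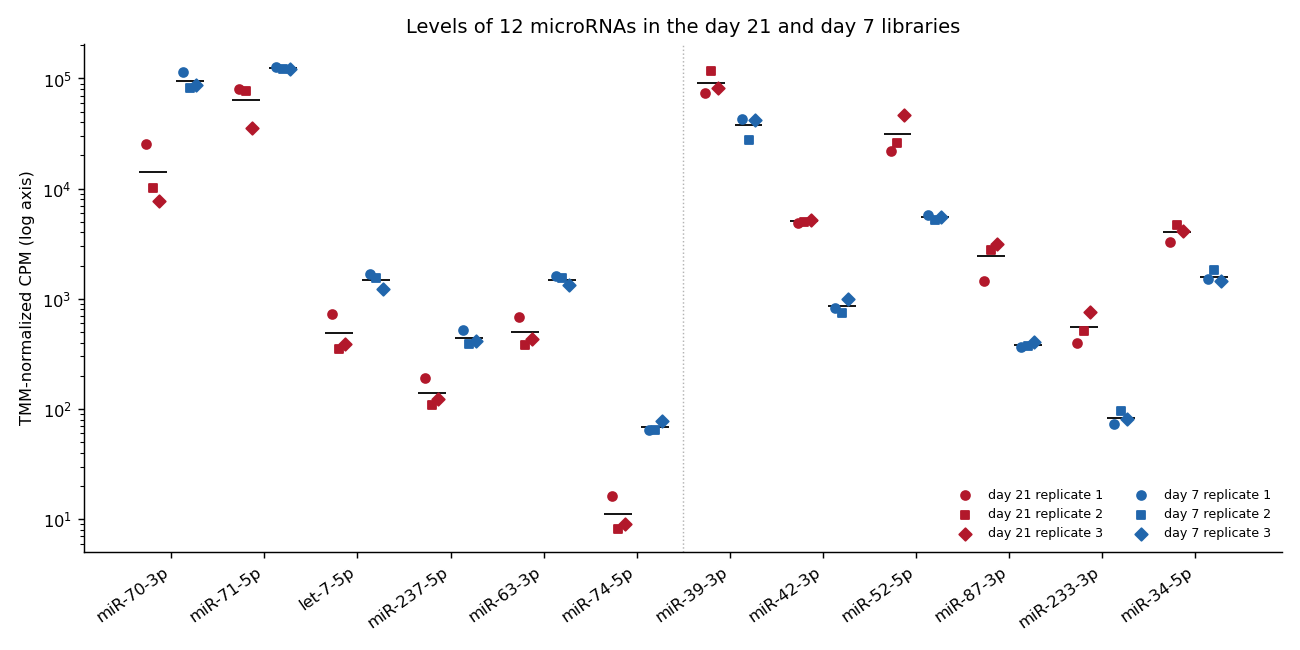
TMM-normalized CPM (vertical axis, logarithmic) of 12 microRNAs at day 21 (red, left of each pair) and at day 7 (blue), 3 libraries each, with lines at the means and marker shapes for the replicate number. The 6 microRNAs on the left were lower and the 6 on the right higher at day 21, and no pair overlaps. Of the day 21 libraries, replicate 1 (circles) is nearest to day 7 for all 12.

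Among the microRNAs that rose, the miR-35 family made up the largest share of counts. This family is made in the germline and in embryos, and embryos without it die. Its 3p arms carry the seed, and 8 of 8 were higher at day 21 (log2 fold change 0.72 to 2.56, median 1.24), with the same 8 calls under every alternative. miR-39-3p was at 73112, 117134 and 81167 CPM at day 21, against 42521, 27717 and 42299 CPM at day 7 (1.27, SE 0.28, adjusted p = 0.00188). miR-42-3p changed the most, with 4904, 5019 and 5240 CPM at day 21, against 830.4, 744.6 and 996.4 CPM at day 7 (2.56, SE 0.21, adjusted p = 1.6e-06). Its day 21 libraries were nearly alike, replicate 1 included. miR-37-3p was at 13351 ± 1265 CPM at day 21 and 3361 ± 173 CPM at day 7 (1.99, adjusted p = 7.3e-05), and miR-40-3p at 27190 ± 4057 CPM at day 21 and 9831 ± 975 CPM at day 7 (1.47, adjusted p = 1.5e-04). The mean of miR-35-3p was 5826 CPM (day 1), 25729 (day 7), 61016 (day 14) and 57188 (day 21).

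As a group, the 5p arms of the same hairpins did not follow. None of the 7 tested was called higher and 4 were lower (median -1.02), beside 24.9% lower among all 245. Their log2 fold changes ran from -2.39 to 1.00. The scarce miR-35-5p (1.00, SE 0.81, adjusted p = 0.301) and miR-42-5p (0.21, adjusted p = 0.662) lay above 0 without a call. Without day 21 replicate 1, 6 of 8 tested were lower. The count was 2 without day 7 replicate 1, day 7 replicate 2 or day 21 replicate 2. miR-41-5p was at 175.5, 50.8 and 47.9 CPM at day 21, against 544, 377.5 and 524.5 CPM at day 7 (-2.39, adjusted p = 0.00341), while miR-41-3p was at 137.5, 112.2 and 171.9 CPM at day 21, against 46.9, 66.7 and 68.7 CPM at day 7 (1.21, adjusted p = 0.00178). The 5p arm of this hairpin was thus the more abundant in each day 7 library, and the 3p arm in day 21 replicates 2 and 3. miR-39-5p (-1.98, adjusted p = 0.0273) lost its call under every omission of a library other than day 21 replicate 1 (-2.09 to -1.54). *mir-35* to *mir-41* lie together on chromosome II (WBcel235, 11537608 to 11538404, plus strand), inside an intron of a coding gene that runs the other way.

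The miR-51 family, which is broadly expressed and needed for development of the embryo, had members on either side of the threshold. miR-52-5p was at 21863, 25748 and 46644 CPM at day 21, against 5743, 5187 and 5515 CPM at day 7 (2.52, SE 0.33, adjusted p = 7.7e-05). miR-53-5p (1.80, adjusted p = 4.6e-04) and miR-54-3p (1.14, adjusted p = 0.00284) were higher as well. miR-56-3p, at 41997, 58679 and 52456 CPM at day 21 and 50636, 46213 and 51946 CPM at day 7, was not called, and its interval of -0.46 to 0.54 lay within 2-fold. miR-51-5p was at 31366 ± 5101 CPM at day 21 and 47233 ± 12940 CPM at day 7 (-0.59, adjusted p = 0.158), and miR-55-3p at 57114 ± 13315 CPM at day 21 and 39699 ± 2578 CPM at day 7 (0.52, adjusted p = 0.0603), called higher without day 21 replicate 1 (0.68). *mir-54*, *mir-55* and *mir-56* lie within 1 stretch of chromosome X (WBcel235, 13144691 to 13145094, minus strand), and of their 6 arms 1 was higher and 1 lower. The 11 arms of the family tested gave 3 higher, the same share as the 27.3% of all 245, and 1 lower, and none was lower without day 7 replicate 2 or 3 or without day 21 replicate 2 or 3.

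In the miR-58 family none of 9 arms was higher and 3 were lower (median -0.56), beside 24.9% lower among all 245. The 3 were 5p arms of low level. miR-58-5p was at 126 ± 26.4 CPM at day 21 and 281 ± 12.4 CPM at day 7 (-1.16, adjusted p = 0.00289). The calls of miR-80-5p (-0.95, adjusted p = 0.0481) and miR-82-5p (-1.15, adjusted p = 0.0191) were lost without day 21 replicate 3 (-0.72, 0.124, and -1.08, 0.0686) and in other fits, so that 1 to 3 of the family's arms were called when a library was left out. The abundant 3p arms, which hold the family's share of counts, were lower in level without passing the test. miR-80-3p was at 66670, 47177 and 52839 CPM at day 21, against 83350, 81301 and 81517 CPM at day 7 (-0.56, 95% interval -1.12 to -0.00, adjusted p = 0.084). miR-82-3p was at 46912, 56778 and 34802 CPM at day 21, against 65073, 54797 and 63271 CPM at day 7 (-0.40, 95% interval -1.03 to 0.23, adjusted p = 0.257). miR-80-3p did not overlap between the ages, and miR-82-3p did.

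miR-44-3p and miR-45-3p were at 47413, 67604 and 40883 CPM at day 21, against 20250, 16717 and 20113 CPM at day 7 (1.45, SE 0.29, adjusted p = 0.00104). Since their counts are the same, the gene of origin is uncertain. miR-247-3p of this family was at 16.1 ± 5.46 CPM at day 21 and 5.41 ± 0.897 CPM at day 7 (1.56, adjusted p = 0.00612). In the miR-2 family, miR-2-3p was at 252.3, 347.5 and 494 CPM at day 21, against 141.5, 147.2 and 131.9 CPM at day 7 (1.38, adjusted p = 8.0e-04), and miR-43-3p was at 43.6, 64.0 and 97.1 CPM at day 21, against 7.40, 8.44 and 9.76 CPM at day 7 (2.99, adjusted p = 3.1e-05). Both were separated from day 7 in every library. miR-72-5p made up most of its family's share, with 48586 ± 10511 CPM at day 21 and 24714 ± 1600 CPM at day 7 (0.98, adjusted p = 0.00746).

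miR-87-3p and miR-233-3p, which share a seed, rose by similar amounts. miR-87, needed in *Drosophila* for dendrites to regrow, was at 1464, 2759 and 3131 CPM (miR-87-3p) at day 21, against 366.7, 373.3 and 402.5 CPM at day 7 (2.69, SE 0.37, adjusted p = 8.1e-05). miR-233-3p was at 400.8, 506.6 and 753.6 CPM at day 21, against 72.5, 95.1 and 81.3 CPM at day 7 (2.74, SE 0.37, adjusted p = 7.7e-05). In both, day 21 replicate 1 was the lowest of its age and still several times above day 7. The 5p arms of these hairpins were low and not called, with miR-87-5p at 5.54 ± 1.66 CPM at day 21 and 7.89 ± 1.16 CPM at day 7. *mir-87* lies on chromosome V and *mir-233* on chromosome X, each inside an intron of a coding gene transcribed the same way.

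The miR-29 family has 2 genes in the worm. miR-49-3p was at 1247, 1291 and 1586 CPM at day 21, against 399.9, 489.4 and 406.6 CPM at day 7 (1.67, SE 0.26, adjusted p = 2.2e-04), and passed under every alternative. miR-83-3p, whose mimic is shown above, was at 223.2, 197.3 and 329.4 CPM at day 21, against 103.4, 160.3 and 87.6 CPM at day 7 (1.09, SE 0.38, adjusted p = 0.0273). The 3 day 21 libraries lay above the 3 of day 7, but the call was lost with library totals in place of TMM (1.02, 0.0751) and without day 7 replicate 1 (0.99, 0.105), day 7 replicate 3 (0.95, 0.120) or day 21 replicate 3 (0.82, 0.142). miR-83-5p was at 52.7 ± 19.6 CPM at day 21 and 78.8 ± 10.2 CPM at day 7 (-0.58, adjusted p = 0.0906), and was called lower without day 21 replicate 1 (-0.96, 0.0139).

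Of the 19 arms of 11 genes reported to act on lifespan, 7 were higher and 4 lower at day 21 (median log2 fold change -0.08), against 67 and 61 of all 245. When a library was left out, 6 to 9 were higher and 1 to 5 lower, with 1 lower without day 21 replicate 3 and 2 lower without day 7 replicate 1 or day 7 replicate 2. miR-71-5p, whose gene lengthens life, was at 79929, 77097 and 35707 CPM at day 21, against 126952, 121236 and 121456 CPM at day 7 (-0.94, SE 0.32, adjusted p = 0.0273). Day 21 replicate 3 was much the lowest, and without it the call was lost (-0.67, 0.0636). miR-71-3p gave -1.03 (adjusted p = 0.00149), and passed under every alternative. miR-239a-5p and miR-239b-5p, from genes of which deletion has been found to lengthen life, were higher. The first of them was at 137.2, 232.1 and 458 CPM at day 21, against 68.9, 85.1 and 81.1 CPM at day 7 (1.81, adjusted p = 0.00175), and miR-239b-5p was at 14.0, 33.0 and 60.3 CPM at day 21, against 3.97, 5.02 and 4.88 CPM at day 7 (2.94, adjusted p = 0.00104). Their relative miR-238-3p, needed for normal lifespan, was level at 22941 ± 1472 CPM at day 21 and 24284 ± 800 CPM at day 7, with an interval of -0.49 to 0.33. miR-34-5p, which takes part in the DNA damage response, was at 3305, 4673 and 4113 CPM at day 21, against 1513, 1827 and 1438 CPM at day 7 (1.34, adjusted p = 0.00137), and its partner miR-34-3p rose by a like amount (1.26, adjusted p = 0.00112). miR-246-3p was at 5851, 12248 and 5340 CPM at day 21 and 4881, 4645 and 4617 CPM at day 7 (0.73, adjusted p = 0.0988), where day 21 replicate 2 held the high value.

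Markers of tissues gave the following. For neurons, 0 of 3 arms tested were called by edgeR (1 had an unadjusted p under 0.05) and 0 of 3 by DESeq2, and miR-234-3p, at 337 ± 43.2 CPM at day 21 and 301 ± 5.54 CPM at day 7, had an interval of -0.26 to 0.58. The left-right asymmetry gene *lsy-6*, active in a pair of taste neurons, gave 3.83 ± 0.432 CPM at day 21 and 5.77 ± 0.504 CPM at day 7 (-0.58, adjusted p = 0.125). miR-124-3p, of sensory neurons, was at 13.6 ± 2.72 CPM at day 21 and 7.30 ± 3.02 CPM at day 7 (0.89, adjusted p = 0.0651), and it was called higher with the 6 libraries alone (0.87, 0.0477) and without day 7 replicate 2 (1.32, 0.0224). Of the 5 neuronal arms listed, 2 were called higher without day 7 replicate 2. The count was 1 without day 21 replicate 2, without day 21 replicate 3 or with no filter on counts. Among the 3 arms of the main fit only miR-124-3p gained a call, so the other calls came from outside these 3. For muscle, miR-1-3p was at 8846, 8182 and 5792 CPM at day 21, against 10438, 11740 and 8367 CPM at day 7 (-0.42, adjusted p = 0.114), and it was called lower without day 21 replicate 1 (-0.59). Its partner miR-1-5p was at 50.7, 62.05 and 50.6 CPM at day 21, against 47.4, 35.8 and 46.3 CPM at day 7 (0.33, adjusted p = 0.202). For the intestine, miR-60-3p was at 137 ± 61.0 CPM at day 21 and 282 ± 86.3 CPM at day 7 (-1.04, adjusted p = 0.0604), and it was called lower with the 6 libraries alone (-1.03, 0.0455), with no filter on counts (-1.16, 0.0237) and by DESeq2 (-1.03, 0.0402). The scarce miR-60-5p, with 12 counts at day 21 and 33 at day 7, was called lower (-1.57, adjusted p = 0.0476) and lost that call in 8 of the alternatives, among them the omission of any single library other than day 21 replicate 1 (-1.59 to -1.05). miR-228-5p, of glia and hypodermis, was at 19517, 37975 and 36012 CPM at day 21, against 11814, 9719 and 13101 CPM at day 7 (1.43, SE 0.31, adjusted p = 0.00175). Its partner miR-228-3p was at 25.0 ± 5.57 CPM at day 21 and 27.4 ± 0.725 CPM at day 7 (-0.13, adjusted p = 0.716). The parts of tissue make-up and of levels within cells in any of these were not tested.

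Hairpins that lie close together were then examined by position, a grouping made after the values had been seen. Genes on 1 strand with gaps of at most 10000 bases were treated as a group. On chromosome X (WBcel235, 1872466 to 1880038, plus strand), 9 hairpins running *mir-4807* to *mir-4921* had 6 arms with enough counts to be tested, and these were called higher (2.24 to 3.26, median 2.85), where 27.3% of all 245 were. Arms this scarce at day 7 could pass the filter through the ages at which they were higher, so the count is a description. With no filter 10 arms were tested and 6 called. miR-4807 was at 31.1, 93.8 and 60.0 CPM at day 21, against 8.77, 7.18 and 8.18 CPM at day 7 (2.93, adjusted p = 7.7e-05). miR-1018 was at 8.12, 34.6 and 14.3 CPM at day 21, against 1.37, 2.28 and 2.38 CPM at day 7 (3.21, adjusted p = 4.6e-04). It is listed as a mirtron, but no protein-coding gene overlaps its hairpin in WBcel235. All 6 were scarce, at 5.51 to 61.6 CPM on average at day 21, and the 6 were called higher in every fit without 1 library, while the filter of 10 counts in every library left 1 of them to test. On chromosome IV (1021772 to 1027281, plus strand), the hairpins of *mir-2208* and *mir-2209* had 5 arms tested, called higher (0.98 to 3.01) with the same limit. With no filter 8 arms were tested and 4 called, and with 10 counts in every library 2 were tested and 2 called. The largest value was that of miR-2208b-3p at 3.30, 14.7 and 14.8 CPM at day 21, against 1.64, 1.03 and 1.32 CPM at day 7. For this group 4 of 5 were called without day 7 replicate 1, day 7 replicate 2 or day 21 replicate 2.

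At *mir-42*, *mir-43* and *mir-44* on chromosome II (11889811 to 11890118, plus strand), 3 of 5 arms were higher, and the 3 belong to different seed families. miR-42-5p and miR-44-5p, the partner arms, were not called (0.21 and 0.38). *mir-240* and *mir-786*, on chromosome X (7882622 to 7882840, plus strand), gave 3 of 3 arms higher. The pair is known from the somatic gonad, and miR-786 sets the rhythm of defecation from the intestine. miR-786-3p was at 1593, 2000 and 2832 CPM at day 21, against 946.2, 1053 and 921.2 CPM at day 7 (1.14, adjusted p = 0.00113), and miR-240-5p was at 663.2, 1603 and 1058 CPM at day 21, against 321.4, 266.1 and 331.8 CPM at day 7 (1.85, adjusted p = 0.00134). miR-240-3p (0.83, adjusted p = 0.0141) lost its call with library totals (0.78, 0.0584), without any day 7 library (0.82 to 0.88) and without day 21 replicate 3 (0.52, 0.129). miR-247-3p and miR-797-5p, neighbours on the same chromosome, were both higher. miR-797-5p had 127 counts at day 21 and 10 at day 7 (3.70, SE 0.83, adjusted p = 0.00233), so its fold change rests on a level near 0 at day 7.

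The arms of neighbours did not always have the same call. *mir-73*, *mir-74* and *mir-75* on chromosome X (2368765 to 2372549, plus strand) gave 1 arm higher and 3 lower of 6. Here the split was between the arms and not between the neighbours. The 5p arms were lower in each hairpin (-1.71, -2.60 and -1.68). The 3p arms had positive values (0.56, 2.07 and 0.60), and of these only miR-74-3p was called. At *mir-48* with *mir-241* on chromosome V, 0 arms were higher and 2 lower of 4. All 4 of these arms had negative log2 fold changes, but of unlike size. Those of *mir-241* were -1.72 (5p) and -1.85 (3p), and those of *mir-48* were -0.33 (5p) and -0.26 (3p). The difference between the 2 hairpins was not tested.

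**Figure D4:**
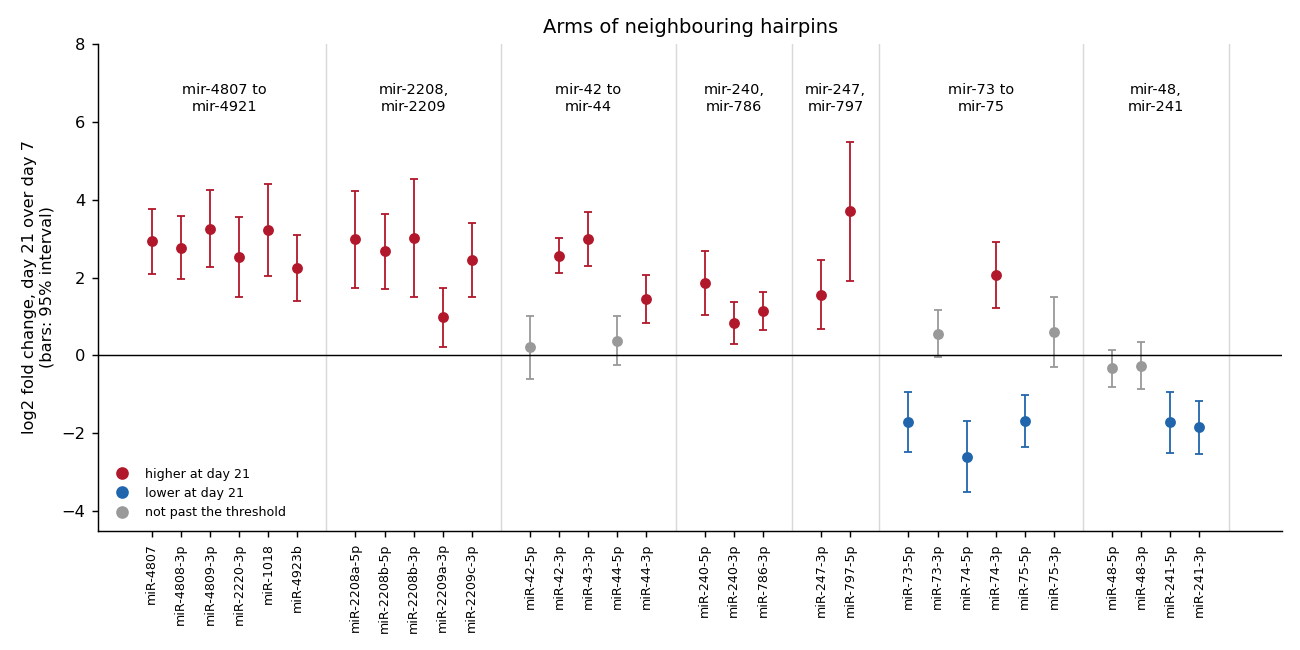
Log2 fold change of day 21 over day 7 with its 95% interval (vertical axis) for the tested arms of 7 groups of neighbouring hairpins, coloured by the call of edgeR; of miR-44-3p and miR-45-3p only the name at this locus is drawn. The 6 arms of the group on the left lie between 2.24 and 3.26, while in the group of *mir-73* to *mir-75* the arms fall on both sides of 0.

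The 2 arms of a hairpin are cut from the same precursor, so their ratio does not depend on the scaling of the libraries. For 82 hairpins with both arms tested, the more abundant arm was chosen on days 1 and 14 only. The less abundant arm lost ground to its partner at day 21 in 59 of the 82. The median log2 ratio of the less to the more abundant arm was -6.16, -6.36 and -6.82 at day 21, against -5.73, -5.69 and -5.77 at day 7. The day 21 values were all lower, with a difference of -0.72 (two-sided exact permutation p = 0.1, again the smallest possible). Without the miR-35 family the difference was -0.47 over 75 hairpins (exact permutation p = 0.2). At days 1 and 14 the median ratio was -5.34 ± 0.22 and -6.20 ± 0.33 (SD, n = 3 each), but these libraries chose the arms.

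In 10 hairpins the arms were called in opposite directions. In 9 of them the more abundant arm rose and its partner fell, and *mir-41* was the exception. Among the 9 was *mir-45*, whose 3p counts are the same as those of miR-44-3p, so a split within this hairpin is uncertain. *mir-44* and *mir-45* both entered the comparison of arms with these same 3p counts. The widest split was at *mir-74*, of the miR-72 family. miR-74-3p was at 253.6, 271.4 and 466.6 CPM at day 21, against 69.5, 87.8 and 78.5 CPM at day 7 (2.07, adjusted p = 8.2e-04), while miR-74-5p was at 16.2, 8.20 and 9.07 CPM at day 21, against 64.5, 63.8 and 77.6 CPM at day 7 (-2.60, adjusted p = 3.9e-04). At day 7 the arms were near parity (log2 ratio of 5p to 3p -0.19 ± 0.23), and at day 21 the 3p arm led by far (-4.88 ± 0.86). At *mir-229* the ratio of 3p to 5p was -4.48 ± 1.01 at day 21 and -1.73 ± 0.05 at day 7. At *mir-86* the ratio of 3p to 5p was -5.62 ± 0.83 at day 21 and -3.22 ± 0.37 at day 7, where the call of miR-86-5p as higher (1.08, adjusted p = 0.0273) was lost without any single library other than day 21 replicates 1 and 2 and with library totals. Not all hairpins shifted. At *mir-34*, where both arms rose, the ratio of 3p to 5p was -6.30 ± 0.19 at day 21 and -6.23 ± 0.22 at day 7, and the libraries overlapped. Both arms were called higher in 6 hairpins and lower in 7.

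**Figure D5:**
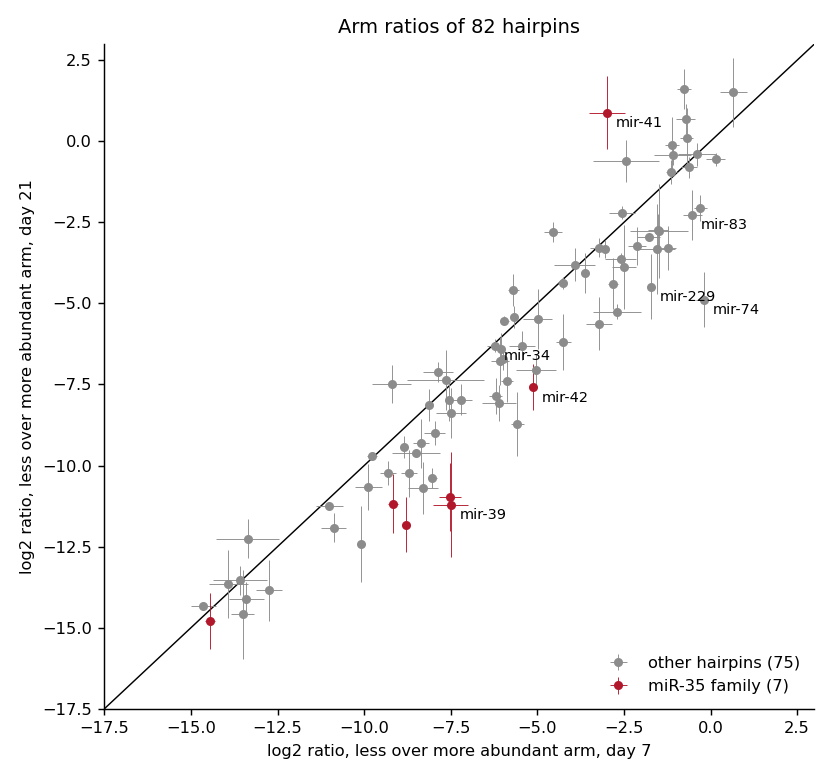
Log2 ratio of the less to the more abundant arm at day 21 (vertical axis) against day 7 (horizontal axis) for 82 hairpins, with means of 3 libraries, SD bars and the line of equality; the miR-35 family is in red. Most points (59) lie under the line, *mir-74* far below it, and *mir-41* lies above it with a value of 0.88 at day 21 and -2.99 at day 7.

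For 59 of the 245 microRNAs the 95% interval of the change lay within 2-fold, and 58 of these were among the 117 not called. The most abundant of them were miR-55-3p, miR-56-3p, miR-58-3p, miR-238-3p and miR-48-5p. For the other 59 of the 117, the data bound the change less tightly, and a missed threshold does not show that the ages were alike. Replicates were less alike at day 21. The median over microRNAs of the SD of log2 CPM was 0.380 at day 21 and 0.209 at day 7, and it was larger at day 21 for 180 of the 245. Without day 21 replicate 1 the value at day 21 was 0.290, larger than at day 7 for 155 of the 245.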

How the data were processed

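Small RNA of whole N2 worms was sequenced on an Illumina platform. For alignment the authors used Tophat with genome build WBcel215, then assigned reads to known microRNAs with miRDeep and compared ages with DESeq; versions are not given in the sources used here. The authors deposited whole counts per mature microRNA and library; the CPM deposited beside them equal count over library total within 0.005. Fold changes and p-values of the authors' own comparisons were not used. The table's 375 named lines gave 368 microRNAs, with the line of the largest total taken for 7 that appear on several (summed as an alternative), and the line with no name was left out.

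edgeR 4.0.16 in R 4.3.3 kept 245 microRNAs (filterByExpr, minimum count 10) and left out 123. Libraries were scaled by TMM, and day 21 was contrasted with day 7 by the quasi-likelihood test, with all 12 libraries and age as factor (8 residual degrees of freedom). Adjusted p-values are Benjamini-Hochberg over the 245. Log2 arm ratios used a prior count of 1. With 3 libraries an age, the spread between replicates limits the precision more than depth does, and intervals cover these libraries only. Alternatives were RLE size factors, library totals, 2 other filters, DESeq2 1.42.0, the 6 libraries alone, a replicate term, each library left out, and summed lines.

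MicroRNAs were named by rule: the 12 largest changes in each direction (called, libraries apart, mean of at least 10 CPM), the 8 most abundant at each age, both arms of 15 genes of prior interest, up to 3 per list by adjusted p, and the 5 most abundant within 2-fold, 98 in all. Others named were chosen after their values were seen, as were the groups of neighbours. The 26 lists (seed families, mirtrons, lifespan, tissue markers, the group of *mir-2208* and *mir-2209*) hold both arms of each gene. The comparison and lists were chosen with earlier results of these data known. Hairpin positions are from the WBcel235 annotation, in which 212 of 218 hairpins matched by name. Oligonucleotide sequences are from the study's list.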

Additional observations from a re-analysis of the deposited data

How the results depend on the processing

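The count of lower microRNAs moved most, to 39 with at least 10 counts in every library, where 182 were tested. When a library was left out, the count was 95 to 136 in all, 55 to 70 higher and 39 to 66 lower, and it was 39 lower without day 21 replicate 3; fewer libraries enter those fits. Over all alternatives 84 of the 128 calls passed (51 higher and 33 lower), and 106 did so when fits without a library were set aside. DESeq2 called 133, of which 127 were shared in direction. Library totals gave 118 (58 higher and 60 lower). Of 1356 comparisons of named microRNAs with an alternative, 1283 kept direction and side of the threshold, 51 lost the call, 22 gained it and 0 reversed. Same-numbered libraries of the 2 ages showed no clear shared deviation (correlations of 0.056, -0.191 and -0.066, against -0.120 to 0.204 for unlike numbers). With 3 libraries an age these values cannot exclude a pairing by replicate number, and the main fit left it out. A replicate block gave 125 calls (63 higher and 62 lower). In that fit miR-60-3p was called lower (-1.19, adjusted p = 0.044) and the call of miR-39-5p was lost (adjusted p = 0.0532). Scarce microRNAs are limited by counts, 81 of those tested being under 10 CPM.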
